A study of Mus musculus with 2 samples.

Results

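Melanocyte pigment and lineage genes were followed in tumour barcodes that had passed a sort for white blood cells. They were 10 genes, Pmel, Mlana, Dct, Tyrp1, Tyr, Slc45a2, Mitf, Sox10, Trpm1 and Kcnj13, chosen by their symbols from the 31053 genes of the matrix, and each was found once. The data were droplet 3′ single-cell RNA counts from B16F10 tumours, a transplantable mouse melanoma line from the C57BL/6 strain, grown for 2 weeks. The genotypes were a myeloid Rel knockout (LysM-cre x RelloxP/loxP) and a wild type for Rel (LysM-cre x Rel+/+), so that both carried LysM-cre. In the knockout, Cre made in myeloid cells removes Rel, the gene of the NF-kB subunit c-Rel. The injected tumour cells were the same line in both genotypes, and Cre expression in the host's myeloid cells is not a deletion in the tumour cells. Each genotype was 1 library of viable CD45+ cells from 5 pooled tumours, and the age of the mice was not given in the sources used here. The matrix marks each barcode only with the number 1 or 2 of its library. With no label matching these numbers to genotypes, results are given for library 1 and library 2 and no effect of Rel was read.

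Pigment is made in melanosomes, lysosome-related organelles of melanocytes. Sox10 and Mitf encode the transcription factors that specify the lineage, and Mitf drives many pigment genes through M-box sites in their promoters. Tyr encodes tyrosinase, the enzyme that starts melanin synthesis, while Tyrp1 and Dct encode related enzymes that act later on the eumelanin branch. Pmel forms the fibrils on which melanin is laid down, Mlana is a melanosome membrane protein that helps Pmel mature, and Slc45a2 is a melanosome transporter. Trpm1 encodes a cation channel of melanocytes whose intron holds the microRNA gene Mir211. Kcnj13 encodes the inward rectifier potassium channel Kir7.1, known for its part in stripe formation in zebrafish. B16F10 is a pigmented line, and in human melanoma low levels of this gene set mark a dedifferentiated state.

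Promoter windows of 250 bases upstream of the start are shown for the members that hold a named motif, because Mitf acts on pigment genes through such sites. The sequences are from RefSeq, build GRCm38.p6, and run 5′ to 3′ along the gene's strand. Capitals mark the M-box core TCATGTG, or CACATGA where it lies on the other strand. In the window before start 3 of Mitf they mark a cyclic AMP response element, TGACGTCA.
Tyr, chr7:87493513-87493762, minus strand: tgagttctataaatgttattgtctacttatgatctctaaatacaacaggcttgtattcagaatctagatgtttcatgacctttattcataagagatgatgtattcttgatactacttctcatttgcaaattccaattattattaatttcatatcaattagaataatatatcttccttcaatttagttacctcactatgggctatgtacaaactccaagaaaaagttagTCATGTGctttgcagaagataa
Tyrp1, chr4:80833963-80834212, plus strand: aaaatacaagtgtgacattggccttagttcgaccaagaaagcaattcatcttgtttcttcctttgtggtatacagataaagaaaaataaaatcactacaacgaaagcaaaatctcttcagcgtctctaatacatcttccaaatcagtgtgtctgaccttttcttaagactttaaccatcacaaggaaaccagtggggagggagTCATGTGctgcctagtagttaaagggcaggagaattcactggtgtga
Dct, chr14:118052247-118052496, minus strand: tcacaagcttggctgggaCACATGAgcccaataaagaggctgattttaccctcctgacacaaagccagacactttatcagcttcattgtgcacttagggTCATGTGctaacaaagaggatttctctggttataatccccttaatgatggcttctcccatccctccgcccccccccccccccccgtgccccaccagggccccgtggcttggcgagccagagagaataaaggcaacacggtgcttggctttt
Trpm1, start 1, chr7:64153585-64153834, plus strand: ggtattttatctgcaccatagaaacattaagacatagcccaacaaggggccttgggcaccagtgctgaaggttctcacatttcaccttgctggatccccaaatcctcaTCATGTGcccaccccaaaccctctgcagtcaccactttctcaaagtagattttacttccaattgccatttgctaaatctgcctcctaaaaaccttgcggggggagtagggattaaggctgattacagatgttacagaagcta
Kcnj13, chr1:87394730-87394979, minus strand: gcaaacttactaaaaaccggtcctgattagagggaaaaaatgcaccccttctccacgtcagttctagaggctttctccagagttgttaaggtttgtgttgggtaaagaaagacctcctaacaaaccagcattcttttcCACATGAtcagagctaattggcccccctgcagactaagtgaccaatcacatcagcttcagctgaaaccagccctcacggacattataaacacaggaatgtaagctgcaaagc
Mitf, start 3, chr6:97991533-97991782, plus strand: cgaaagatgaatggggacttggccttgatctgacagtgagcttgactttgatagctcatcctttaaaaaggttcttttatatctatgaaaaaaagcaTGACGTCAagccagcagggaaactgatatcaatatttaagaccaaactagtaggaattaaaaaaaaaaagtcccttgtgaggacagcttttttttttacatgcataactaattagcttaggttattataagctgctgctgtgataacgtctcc

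The M-box core, searched on both strands, lay 22 bases before the start of Tyr, 47 before that of Tyrp1, 142 before start 1 of Trpm1 and 112 before that of Kcnj13. Dct had 2 copies, 232 and 151 bases before its start, on opposite strands. Of 32536 such windows over all listed genes, 3.27% held the core. Neither start 2 of Trpm1 nor any of the 3 listed starts of Mitf had it. The response element 153 bases before start 3 of Mitf was in 1.56% of all windows. Pmel, Mlana, Slc45a2 and Sox10 were not in the table of windows. A match is a string in the sequence and was not read as a bound site.

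Members were read in deep melanoma barcodes, meaning at least 5000 UMIs, no UMI of Ptprc (the CD45 gene) and at least 0.5% of UMIs from Pmel, Mlana, Dct and Tyrp1 together. Library 1 held 7688 barcodes and 49129318 UMIs, of which 1825 barcodes were deep melanoma barcodes, with a median of 18478 UMIs. Library 2 held 10564 barcodes and 73507228 UMIs, and 4407 were deep melanoma barcodes with a median of 12219 UMIs. A UMI is 1 counted molecule. The 4 genes that chose these barcodes made up 1.09% of their UMIs in library 1 and 1.05% in library 2, and their levels are a description. Near the 0.5% threshold, 253 and 864 barcodes lay just inside, at 0.5% to 0.75%, and 91 and 324 just outside, at 0.25% to 0.5%. The libraries shared 1356 and 1770 of the deep barcodes' sequences with the other library, and none was a shallow copy of a barcode with over 10 times its UMIs.

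The melanoma label held on genes that the threshold had not used, with exceptions. Pax3, a neural crest transcription factor, was at 268 and 181 UMIs per 1000000 UMIs (CPM) in library 1 and library 2, Met at 521 and 455 CPM, and S100b at 201 and 262 CPM. Mia, a usual melanoma marker, was nearly absent at 0.11 and 0.21 CPM, and Ednrb was at 0 and 0.14 CPM. Markers of other cells were low, with 7 macrophage genes summing to 34.5 and 43.7 CPM, 6 neutrophil genes to 38.2 and 57.1 CPM and 5 fibroblast genes to 0.20 and 0.24 CPM. Of 15 genes listed for dedifferentiated melanoma, Jun stood highest at 388 and 288 CPM. Ngfr and Wnt5a were at 0 in both libraries, which allows at most 3 counts each by a 1-sided 95% limit. With 1 library per genotype no test was possible. All intervals are exact 95% intervals for counting error only, Poisson for levels and conditional binomial for ratios.

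The members ranged from abundant to rare, in the same order in both libraries. Dct, at chr14:118012790-118052244, was highest at 4637 CPM in library 1 (4615 to 4660) and 5273 CPM in library 2 (5254 to 5292). Pmel, at chr10:128704195-128720238, followed at 3566 and 2782 CPM. Mlana, at chr19:29697824-29708634, reached 1417 and 1360 CPM, and Tyrp1, at chr4:80834123-80851719, 1291 and 1038 CPM. Tyrosinase RNA was far lower than that of its relatives: Tyr, at chr7:87424771-87493512, was at 119 CPM (115 to 122) and 135 CPM (132 to 138). Counts came from transcript 3′ ends and were not divided by length, so this order is one of counted molecules.

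Slc45a2, at chr15:11000721-11029233, was at 488 and 437 CPM. The regulators were lower, with Mitf, at chr6:97807052-98021349, at 390 CPM (384 to 397) and 255 CPM (251 to 259). Sox10, at chr15:79154908-79165240, was at 137 CPM (133 to 141) and 164 CPM (160 to 167). Among the channels, Trpm1, at chr7:64153835-64269775, was at 322 and 221 CPM, and Kcnj13, at chr1:87386363-87394729, was lowest at 16.9 CPM (15.6 to 18.4) and 5.61 CPM (5.01 to 6.25). Neighbours in this order did not overlap in their counting intervals within either library. Library 1 stood above library 2 for 7 members and below it for Dct, Tyr and Sox10. Coordinates are of genome build mm10. Pmel shares exon sequence with Cdk2 and Dgka on the other strand, and Kcnj13 with Gigyf2. No source used here says whether strand was used in counting, so RNA of these partners may be counted together.

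**Figure D1:**
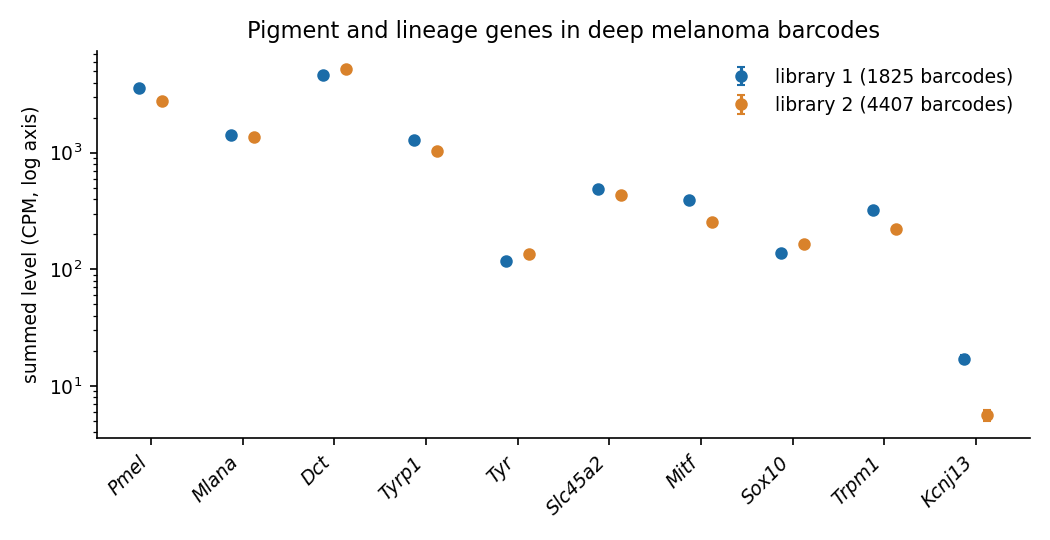
Summed level of each member in deep melanoma barcodes, in CPM on a log axis, for library 1 and library 2; bars are exact 95% Poisson intervals, mostly smaller than the points. Dct stands highest and Kcnj13 lowest in both libraries.

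Pmel, Dct and Kcnj13 had high variance over mean from barcode to barcode, a measure that grows with a gene's mean. To compare barcodes at one depth, each was thinned at random to 5000 UMIs. The variance over the mean, which is 1 for counting noise alone, was 5.40 and 4.89 for Pmel in library 1 and library 2, and 3.69 and 5.63 for Dct. Over all genes with a mean of at least 0.5 UMIs, 1549 and 1495 genes, the median was 1.13 and 1.11, and 90% of genes lay below 1.65 and 1.58. Pmel, Mlana, Dct and Tyrp1 also set the lower limit of the barcodes' selection, so their spread is partly fixed by it. A Pmel count of 11 to 23 UMIs per 5000 covered the middle 50% of barcodes in library 1, and 8 to 19 in library 2, with highest counts of 79 and 88.

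Of the members that did not choose the barcodes, Mitf, Trpm1 and Kcnj13 had a variance over mean above that of 90% of genes. Kcnj13 was at 8.89 and 4.10, but its mean was below the 0.5 UMIs asked of the compared genes. The variance over mean was 1.97 and 1.82 for Mitf and 1.86 and 1.67 for Trpm1. Slc45a2 was at 1.32 and 1.40, Tyr at 1.15 and 1.29 and Sox10 at 1.07 and 1.10. The SD beyond counting noise, divided by the mean, sets genes of different level side by side. On this relative scale Kcnj13 was highest at 9.67 and 9.78, followed by Trpm1 at 0.74 and 0.79 and Mitf at 0.70 and 0.80. Tyr, at 0.500 and 0.636, was as high as Pmel, at 0.497 and 0.525, or higher. Mlana, Tyrp1, Slc45a2, Dct and Sox10 lay between 0.325 and 0.495, with Sox10 at 0.325 and 0.339. At 5000 UMIs Mitf had a mean of 1.97 and 1.28 UMIs and no UMI in 23.9% and 38.3% of barcodes. Sox10, with a mean of 0.69 and 0.83 UMIs, is too sparse at this depth for a barcode without it to be read as a cell without it.

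**Figure D2:**
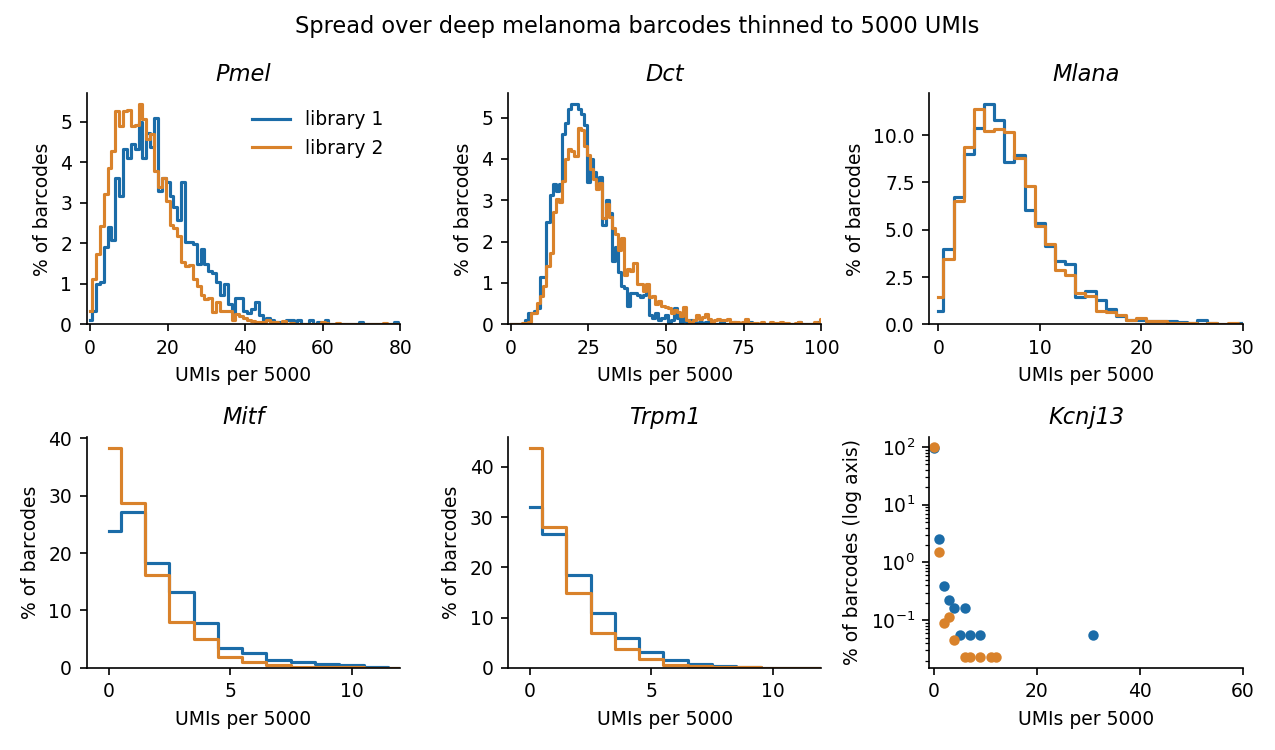
Share of deep melanoma barcodes, in percent, at each UMI count after thinning to 5000 UMIs, for 6 members in library 1 and library 2; the Kcnj13 panel has a log axis and shows each count held by any barcode, and the linear axes end before the few highest counts. Pmel and Dct form 1 broad peak, Mitf and Trpm1 fall off from 0 or 1, and Kcnj13 is at 0 in nearly all barcodes with a long tail.

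Several members varied together with Pmel. Of those that did not choose the barcodes, Trpm1 and Slc45a2 did so most. Pmel, Mlana and Tyrp1 are among the genes that chose the barcodes, so rho between them is partly shaped by that selection. Across thinned barcodes, Spearman's rho with Pmel was 0.39 and 0.35 for Mlana, 0.35 and 0.39 for Tyrp1, 0.36 and 0.32 for Trpm1, and 0.31 and 0.28 for Slc45a2 (n = 1825 and 4407 barcodes of 1 library each). Mitf reached 0.06 and 0.11 with Pmel, at a mean count above that of Trpm1, which had 1.57 and 1.09 UMIs. Sox10 reached 0.02 and -0.01 at its lower mean. To gain counts, barcodes were ranked by Pmel's share of UMIs and cut into 4 equal groups, and UMIs were summed in the highest and the lowest. A gene was called when its CPM differed at least 1.5 times in the same direction in both libraries, with at least 50 UMIs over the compared groups in each.

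Of the 9 other members, 5 were higher in the Pmel-high group, against 2.37% of all 9756 genes tested. Mlana and Tyrp1 are among the genes that chose the barcodes, so nothing is read from their part of this count, and the other 3 were Trpm1, Slc45a2 and Kcnj13. Trpm1 was at 490 CPM in the Pmel-high group and 161 CPM in the Pmel-low group of library 1, and at 339 and 102 CPM in library 2. The ratio was thus 3.05 (2.86 to 3.25) and 3.33 (3.14 to 3.54), close to Pmel's own ratio of 3.65 and 4.15, which the ranking fixed. Tyrp1 rose 1.91 and 2.02 times, Mlana 1.90 and 1.76 times and Slc45a2 1.79 and 1.85 times. Kcnj13 was at 53.0 CPM in the Pmel-high group against 1.87 CPM in the Pmel-low group of library 1, and at 13.8 against 3.31 CPM in library 2. Without its 1 highest barcode in each library, it was still at 29.97 and 12.1 CPM in the Pmel-high group. Tyr, at 1.30 and 1.36, and Mitf, at 1.23 and 1.33, were below the threshold. So was Dct, the most abundant member, at 1.23 and 1.30, but it also chose the barcodes and nothing is read from its ratio. Sox10 was on opposite sides of 1, at 1.12 (1.03 to 1.22) and 0.93 (0.88 to 0.99). Macrophage markers were at 20.9 CPM in the Pmel-high and 23.9 CPM in the Pmel-low group of library 1, and at 34.8 and 47.1 CPM in library 2. Trpm1 and Kcnj13 were the 2 members called when barcodes were cut into 2 groups in place of 4, when a 2-fold difference was asked for, or when the 4 marker genes had to reach 1% of UMIs.

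Other melanosome genes went the same way. Of 25 listed genes for melanosome transport and maturation, 23 had enough UMIs, 8 rose in the Pmel-high group and none fell, against 2.37% of all genes higher and 3.21% lower. Bace2, whose protease cuts Pmel, rose 3.21 and 3.31 times, and Gpr143, a melanosome receptor, 3.11 and 3.54 times. The transporter genes Oca2 and Slc24a5 rose 3.04 and 2.46 times and 2.47 and 2.63 times. The list's median log2 ratio was 0.53 in library 1 and 0.43 in library 2, against 0.04 and 0.03 over all genes. Among 15 tested genes of 22 listed as further Mitf targets, Ptgds, Cdk2 and Amdhd2 rose, and Cdkn1a, a cell cycle inhibitor, fell to 0.37 and 0.30 times its level in the Pmel-low group. Cdk2 shares exon sequence with Pmel, so its ratio of 1.60 and 1.81 is uncertain. Of 16 tested genes among 24 listed as other lineage regulators, Tfeb rose 1.54 and 1.81 times and none fell. Of 5 tested dedifferentiation genes, 3 fell, against 3.21% of all genes, with Nes at 0.36 and 0.57 times and Jun at 0.57 and 0.36 times.

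The genes most like the summed Pmel, Mlana, Dct and Tyrp1 counts, by Spearman's rho over thinned barcodes among 1416 genes, were Cd63, Ptgds, Slc24a5, Slc45a2, Apoe, mt-Nd1, Ctsd and Tspan10. Cd63, a tetraspanin of melanosomes and endosomes, led with 0.45 in library 1 and 0.44 in library 2, followed by Ptgds, a prostaglandin synthase gene, at 0.41 and 0.40. At the other end, Rpl10a stood at -0.31 and -0.26, and Rps3a1, Eef1a1, Rpl32, Rps2, Rpl3, Rpl27a and Gapdh followed. The first 7 of these encode ribosomal proteins or a translation factor, and Gapdh a glycolytic enzyme. The median over all ranked genes was 0.01 and 0.00215. All genes of a barcode share its fixed total of 5000 UMIs.

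**Figure D3:**
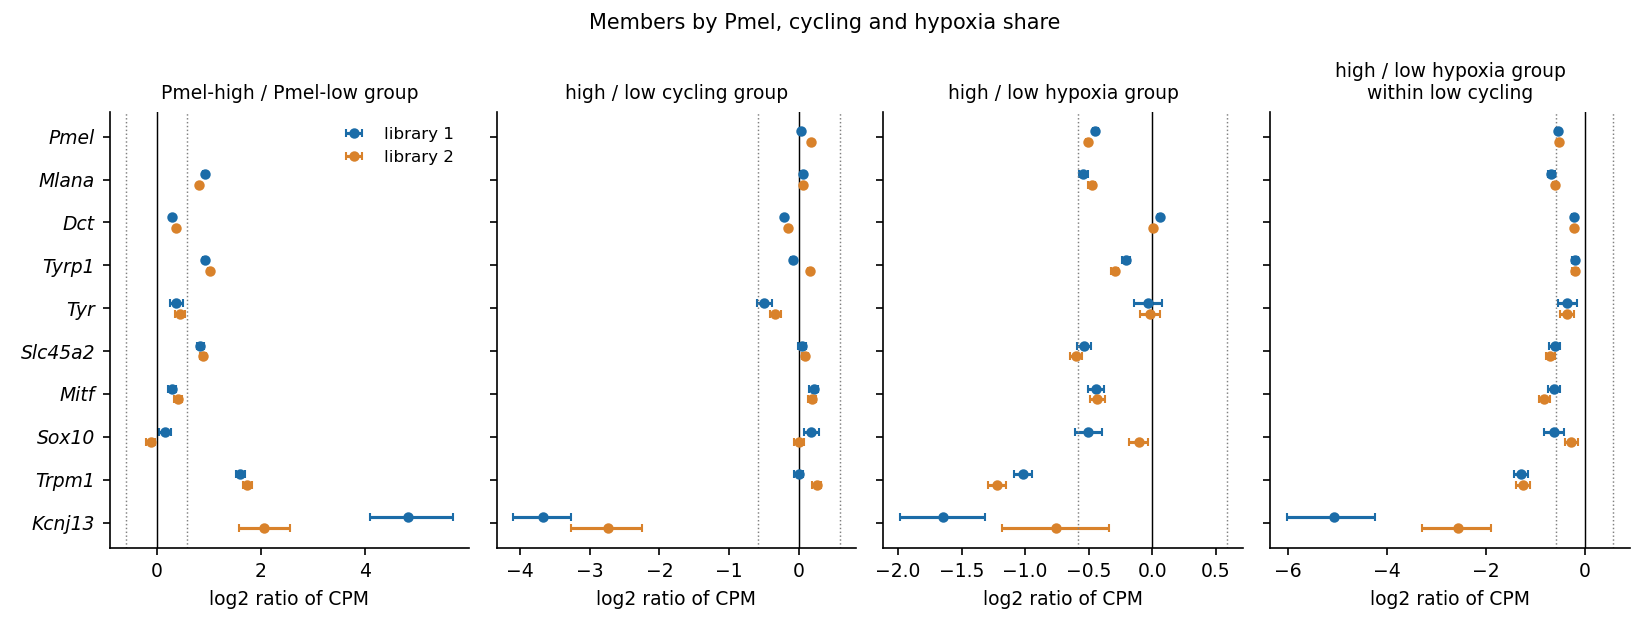
Log2 ratio of CPM of each member between the high and low group of barcodes for 4 rankings, in library 1 and library 2; bars are exact 95% conditional binomial intervals, dotted lines mark 1.5-fold, and axes differ between panels. Pmel is left out of its own panel, Trpm1 and Kcnj13 stand farthest from 0 with Pmel and with hypoxia, and Kcnj13 with cycling.

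Between high-cycling and low-cycling barcodes, Kcnj13 was the 1 member of 10 that passed the threshold. Barcodes were ranked by the summed share of 96 S and G2/M phase genes and cut into 3 equal groups of 608 or 609 in library 1 and 1469 in library 2. The high-cycling and low-cycling groups had medians of 23414 and 15421 UMIs in library 1, and 14123 and 10731 UMIs in library 2. None of the 10 members rose in the high-cycling group, against 10.3% of 10219 genes tested. Kcnj13 fell, against 6.62% of genes, so neither count stands far from the share of all genes. It was at 3.93 CPM in high-cycling and 50.2 CPM in low-cycling barcodes of library 1, and at 1.85 and 12.3 CPM in library 2. Its ratio was 0.08 (0.06 to 0.10) and 0.15 (0.10 to 0.21). A single barcode made up much of the level in library 1, and without the highest barcode of each library low-cycling barcodes were at 29.9 and 11.02 CPM.

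Tyr came nearest to the threshold among the rest. It was at 101.3 CPM in high-cycling against 143 CPM in low-cycling barcodes of library 1, and at 124 against 157 CPM in library 2, a ratio of 0.71 (0.66 to 0.76) and 0.79 (0.75 to 0.84). Dct, encoding a relative of tyrosinase, had ratios of 0.87 and 0.90, and Tyrp1 was on opposite sides of 1 at 0.94 and 1.11. Mitf was slightly above 1, at 1.16 (1.11 to 1.21) and 1.14 (1.10 to 1.19), and Pmel was at 1.02 and 1.13. None of 23 tested melanosome genes was called either way. Among lineage regulators Cited1 fell to 0.37 and 0.42 times, and S100b to 0.45 and 0.46 times. Kit, the receptor gene of the melanocyte growth factor SCF, passed the threshold upward at 1.52 (0.82 to 2.93) and 1.77 (1.07 to 3.03), but was at 1.38 to 2.53 CPM throughout and its interval in library 1 held 1. Macrophage markers were at 22.1 CPM in high-cycling and 55.7 CPM in low-cycling barcodes of library 1, and at 34.7 and 49.4 CPM in library 2, and their part in these ratios was not tested.

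Between high-hypoxia and low-hypoxia barcodes, 2 of 10 members passed the threshold, Trpm1 and Kcnj13. Barcodes were ranked by 30 hypoxia and glycolysis genes, which made up 1.87% of UMIs in the low, 2.98% in the middle and 4.21% in the high group of library 1, and 1.95%, 2.91% and 4.02% in library 2. Trpm1 was at 420, 321 and 208 CPM from the low to the high group in library 1, and at 301, 221 and 129 CPM in library 2. It fell in the high group to 0.49 times (0.47 to 0.52) and 0.43 times (0.41 to 0.45) its level in the low group. No member rose, against 7.04% of 10179 genes tested, and 2 fell, against 11% of genes. Neither count stands far from the share of all genes.

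The other called member was Kcnj13, and its call rests on few barcodes. It was at 8.98 CPM in high-hypoxia and 28.1 CPM in low-hypoxia barcodes of library 1, and at 4.19 and 7.07 CPM in library 2. Without the 10 barcodes of each library that held the most Kcnj13 UMIs, its mean log2 ratio of -1.20 turned to 0.11.

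Dct and Tyr had ratios near 1. Dct, Pmel, Mlana and Tyrp1 chose the barcodes by their sum, so their ratios here are partly shaped by that selection. Dct was at 4723 CPM in high-hypoxia against 4530 CPM in low-hypoxia barcodes of library 1, and at 5270 against 5233 CPM in library 2, a ratio of 1.04 (1.03 to 1.06) and 1.01 (0.998 to 1.02). Tyr was at 117 against 120 CPM and at 136 against 138 CPM, a ratio of 0.98 (0.91 to 1.05) and 0.99 (0.94 to 1.05). Between these and Trpm1, without passing 1.5-fold in both libraries, were Slc45a2 at 0.69 and 0.66, Mlana at 0.69 and 0.72, Pmel at 0.73 and 0.70, Mitf at 0.74 and 0.74 and Tyrp1 at 0.87 and 0.81. Sox10 was at 0.71 and 0.93, with intervals of 0.66 to 0.76 and 0.88 to 0.98 that did not overlap. The members' median log2 ratio, with the genes that chose the barcodes included, was -0.48 and -0.45, against -0.15 and -0.11 over all genes.

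Melanosome genes that fell with hypoxia share were Slc24a5, at 0.60 and 0.59 times, Gpr143, at 0.49 and 0.56 times, Rab32 and Mreg, 4 of 24 tested, while Rab17 rose. These counts are near the 11% of all genes that fell and the 7.04% that rose. The regulators Cited1, S100b and Snai2 rose, Cited1 by 3.20 and 3.43 times, and Tfeb fell. Of 5 tested dedifferentiation genes, 3 rose, with Jun at 2.80 and 2.89 times and Fn1 at 3.76 and 2.22 times. Cdkn1a rose 3.52 and 3.61 times and Apex1 fell to 0.54 and 0.50 times among further Mitf targets.

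**Figure D4:**
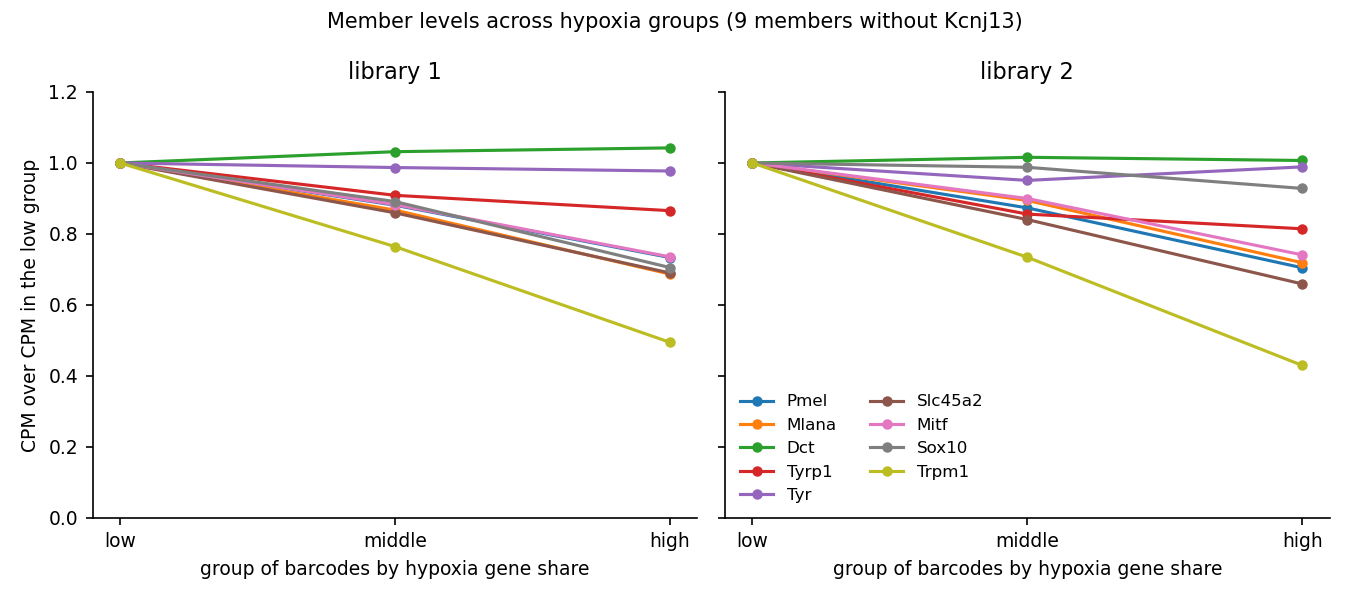
Level of 9 members in the low, middle and high hypoxia group of deep melanoma barcodes, as CPM divided by the CPM of the low group, in library 1 and library 2. Trpm1 goes down to 0.49 and 0.43, while Dct and Tyr stay close to 1 in both libraries.

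Cycling and hypoxia shares ran against each other, with Spearman's rho of -0.41 and -0.39 over barcodes, so hypoxia groups were also formed within low-cycling barcodes. Within them no member rose, against 3.02% of 7810 genes tested, and Mlana, Slc45a2, Mitf, Trpm1 and Kcnj13 fell, 5 members against 7.35% of genes. Mlana is among the genes that chose the barcodes, so nothing is read from its part of this count. Trpm1 was at 189 CPM in high-hypoxia and 459 CPM in low-hypoxia barcodes of library 1, and at 111 and 261 CPM in library 2, a ratio of 0.41 (0.37 to 0.45) and 0.42 (0.39 to 0.47). Mitf was at 275 against 422 CPM and at 173 against 303 CPM, a ratio of 0.65 (0.60 to 0.71) and 0.57 (0.53 to 0.62). Mlana had 0.63 and 0.66 and Slc45a2 0.66 and 0.62, all near the threshold, and 7 of the alternatives left 2 members called, Trpm1 and Kcnj13. Kcnj13 was at 3.78 against 126 CPM in library 1 and at 3.95 against 23.2 CPM in library 2. The highest Kcnj13 barcode of each library was in the low-hypoxia group, which without it was at 63.7 and 19.4 CPM. Dct, at 0.86 and 0.87, and Tyr, at 0.78 and 0.78, were here below 1.

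Macrophage markers moved with this comparison. The 7 genes summed to 26.4 CPM in high-hypoxia and 97.8 CPM in low-hypoxia barcodes of the low-cycling group in library 1, and to 28.0 and 63.9 CPM in library 2. Leaving out every barcode with a C1qa, C1qb or C1qc UMI kept Trpm1 and Kcnj13 called and not Mlana, Slc45a2 or Mitf. The ratios of these 3, near the threshold in at least 1 library, hardly moved. Their log2 ratios, averaged over the libraries, were -0.63, -0.64 and -0.71 without those barcodes and -0.63, -0.65 and -0.71 with them. Melanosome genes fell here in 6 of 22 tested cases and rose in none, against 7.35% of all genes lower and 3.02% higher, with Oca2 at 0.39 and 0.43 times and Gpr143 at 0.43 and 0.46 times.

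Kcnj13 was held by a small number of barcodes. It had no UMI in 1678 of 1825 barcodes of library 1 and 4233 of 4407 of library 2, 1 UMI in 91 and 137, and 2 or more in 56 and 37. In library 1, 1 barcode alone held 196 of 596 UMIs and the next one 25, and in library 2 the highest held 22 of 321. The 10 highest barcodes together held 57.4% and 35.2% of its UMIs. Its variance over mean at 5000 UMIs, 8.89 and 4.10, was the highest of the members in library 1. CD8 T-like barcodes, which should lack it, had no UMI of it in either library, with upper bounds of 3.04 and 5.83 CPM. Macrophage-like barcodes had 2 and 4 UMIs of it, or 1.31 and 2.26 CPM, and monocyte-like barcodes 0 and 2, and B-like barcodes of library 1 had 1. The cluster led by MHC class II genes and Ccl17 had 0 and 2 UMIs, 7.12 CPM in library 2, above the melanoma level of 5.61 CPM there, with an interval of 0.862 to 25.7 CPM.

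Barcodes with 2 or more Kcnj13 UMIs, a threshold set after its values were seen, were mostly low-cycling: 41 of 56 in library 1 and 31 of 37 in library 2 were in the low-cycling group, and 10 and 0 in the high-cycling group. They were deep in the same range as barcodes without it, with medians of 16806 against 18522 UMIs and 10073 against 12210 UMIs. Trpm1 was at 708 CPM in them against 306 CPM in barcodes without Kcnj13 in library 1, and at 600 against 216 CPM in library 2. Pmel was at 5829 against 3468 CPM and at 4651 against 2757 CPM, Mlana at 2271 against 1383 CPM and at 2425 against 1350 CPM, and Tyr at 207 against 114 CPM and at 240 against 133 CPM. Gigyf2, whose exons overlap Kcnj13 on the other strand, was at 50.7 against 43.3 CPM and at 50.01 against 43.4 CPM. Macrophage markers were at 82.8 against 32.6 CPM in library 1 and at 30.01 against 44.2 CPM in library 2, so they did not go the same way in both.

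In clusters formed without the members and other pigment genes, Kcnj13 was highest in cluster 14, which was led by the interferon-induced genes Iigp1, Ifit3 and Igtp. There it was at 232 CPM in 48 deep melanoma barcodes of library 1 and at 70.5 CPM in 71 of library 2. In the other melanoma clusters with at least 40 deep barcodes it was between 6.50 and 12.4 CPM in library 1 and between 2.44 and 5.98 CPM in library 2. The highest Kcnj13 barcode of each library lay in this cluster, and without it the cluster was at 34.5 and 45.5 CPM. The cluster was singled out after its values were seen, and 3 of its 48 and 5 of its 71 barcodes had 2 or more UMIs. Trpm1 was at 435 and 226 CPM in cluster 14, against 405 and 298 CPM in cluster 0, the largest, whose leading genes included Cdc20, Rrm2 and Trpm1 itself. The lowest Trpm1 was in cluster 8, led by the hypoxia genes Pgf, Ero1l and Ndrg1, at 180 and 95.5 CPM, where Pmel was also lowest, at 2594 and 1789 CPM.

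Pigment gene RNA was also counted in immune-like barcodes, which are not known to make Pmel, Mlana, Dct or Tyrp1. As a percent of the level in deep melanoma barcodes of the same library, the 4 marker genes reached 2.44% in macrophage-like barcodes of library 1 (2.21 to 2.69) and 7.01% in those of library 2 (6.63 to 7.40). Monocyte-like barcodes had 2.44% and 7.41%, CD8 T-like barcodes 3.68% and 6.24%, and NK-like barcodes 3.37% and 9.91%. Cluster 13, led by MHC class II genes and Ccl17, had 2.20% and 5.96%. All 10 members were at least 2 times higher in deep melanoma than in macrophage-like barcodes in both libraries, against 23.2% of 11062 genes tested, a gap that the selection of barcodes fixed for 4 of them. All 10 were likewise higher than in monocyte-like barcodes, against 35.6% of genes, and than in CD8 T-like barcodes, against 26.3% of genes. Of the 10, 9 were higher than in NK-like barcodes, against 32% of genes, Kcnj13 having 0 and 1 UMI there. Counting error limits Kcnj13 in these comparisons: in library 2 the upper bound of its level was 103% of the melanoma level in macrophage-like, 112% in monocyte-like and 104% in CD8 T-like barcodes.

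A Dct UMI was found in 98.2% of deep melanoma barcodes of library 1 and 98.9% of those of library 2 after thinning to 1000 UMIs. In CD8 T-like barcodes the share was 13.3% of the 368 deep enough in library 1 and 25.8% of 213 in library 2, with 311 and 228 shallower ones left out. Without thinning, the CD8 T-like shares were 19.1% and 34.9%, at medians of 1048 and 977 UMIs. The source of Dct UMIs in immune-like barcodes was not tested, and no expression there is read from them.

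Neutrophil-like barcodes differed from the other classes, with 53.7% and 78.4% of the melanoma level. In this class 3 barcodes of library 1 and 24 of library 2 were also deep melanoma barcodes. The comparisons thus set part of the class against itself, and no trait of neutrophils is read from them. Of 157 barcodes in library 1, 8 had at least 0.5% of UMIs from the 4 genes, and of 118 in library 2, 38 did. Without these barcodes the values became 9.06% and 24.4%, and at Leiden resolution 0.6 the class was at 3.54% and 7.90%. In library 1 the top 5% of barcodes held 97.4% of these UMIs. At least 2-fold higher levels in deep melanoma than in neutrophil-like barcodes in both libraries were found for 1 of 10 members, Kcnj13, against 4.77% of 10827 genes. That comparison is with a count of 0 in both libraries, where the melanoma marker content of these barcodes gave 2.49 and 2.66 expected UMIs, and it is not read as a difference.

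Mitf, which is also known to act in osteoclasts and mast cells, stood out in macrophage-like barcodes. A single source of free RNA keeps its genes in 1 ratio, so each member's UMIs were set against those expected from the 4 marker genes. In macrophage-like barcodes Mitf was at 55.1 CPM against 390 CPM in deep melanoma barcodes of library 1, and at 60.5 against 255 CPM in library 2. This was 84 UMIs where 14.5 were expected in library 1, 5.78 times (4.61 to 7.16), and 107 where 31.7 were expected in library 2, 3.38 times (2.77 to 4.08). In monocyte-like barcodes it was 4.51 times (3.53 to 5.68) and 2.02 times (1.47 to 2.72) the expected count. At Leiden resolution 1.5 it was 2.90 and 1.06 times, in a smaller class of 451 and 318 barcodes. A cluster of 379 and 672 barcodes that best matched monocytes was then left unnamed.

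Slc45a2, Tyr, Sox10 and Trpm1 kept nearer than Mitf to the ratio of the marker genes in the macrophage-like class. In macrophage-like barcodes Slc45a2 was at 1.21 times (0.76 to 1.84) and 1.24 times (0.96 to 1.57) the expected count, Tyr at 1.59 (0.64 to 3.27) and 0.90 (0.50 to 1.48), and Sox10 at 0.98 (0.32 to 2.29) and 1.48 (0.998 to 2.11). Trpm1 was above it, at 2.09 times (1.35 to 3.08) from 25 UMIs and 1.46 times (1.04 to 1.99) from 40. Kcnj13 did not keep nearer in library 2. It was at 3.17 times (0.38 to 11.5) from 2 UMIs and 5.75 times (1.57 to 14.7) from 4 UMIs. In CD8 T-like barcodes Mitf was at 1.03 times (0.61 to 1.63) and 1.88 times (1.13 to 2.94), and Sox10 in library 2 at 2.79 times (1.65 to 4.40) from 18 UMIs against 1.14 times (0.46 to 2.35) from 7 in library 1. The excess of Mitf in macrophage-like barcodes was far lower, 1.34 and 1.26 times, when barcodes marked as doublets were kept. The marker genes of that class were then at 36.5% and 53.6% of the melanoma level. The cause of the lower excess was not tested.

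**Figure D5:**
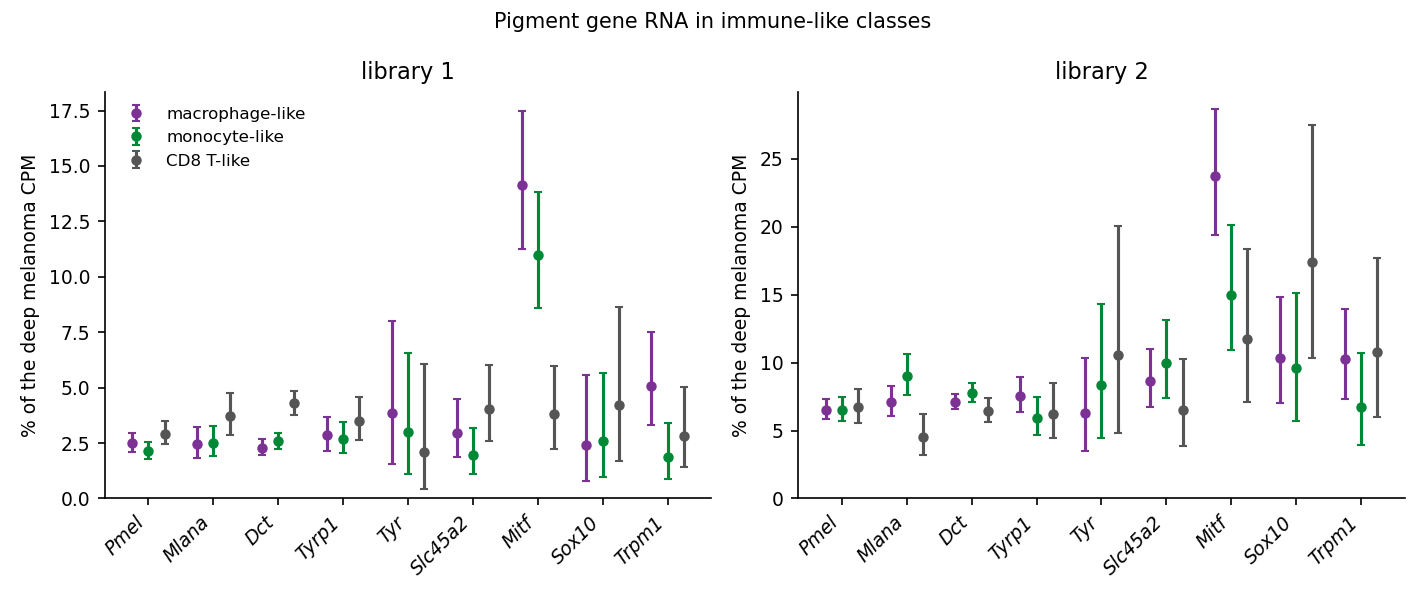
Level of 9 members in macrophage-like, monocyte-like and CD8 T-like barcodes as a percent of their CPM in deep melanoma barcodes, in library 1 and library 2; bars are exact 95% Poisson intervals and the axes differ between panels. Most members share 1 level within a library, and Mitf lies above it in macrophage-like barcodes, at 14.1% and 23.7%.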

How the data were processed

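Viable CD45+ cells of 2 pooled samples were profiled. The deposited values are raw UMI counts per gene and barcode in a filtered matrix, not normalised. Cell Ranger and mm10 are named in the submitters' processing notes, and software of version 3.0.2 made the matrix, per the file headers.

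The members and all lists were chosen with earlier results of these data known. Levels (CPM) are a gene's summed UMIs over all UMIs of the group, times 1000000. A call needed 1.5 times in both libraries and 50 UMIs. Named pathway genes are the up to 4 highest and 4 lowest ratios per list among genes called, the 8 most alike and 8 most opposed genes follow rho, and others were chosen after their values were seen. Some called list genes are counted but not reported here by name.

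For immune-like classes, barcodes with 500 UMIs, 200 genes and at most 10% mitochondrial UMIs were clustered (scanpy 1.11.5, 2000 variable genes without pigment genes, 30 components, 15 neighbours, Leiden resolution 1), without the 6% with the highest Scrublet scores, 426 and 562 barcodes. Classes needed 3 markers at 2 times the 25th percentile of clusters. The rule for T cell subtypes, the Kcnj13 threshold, the 40 barcode minimum per cluster and the count of members lower with hypoxia within low-cycling barcodes were set after the data were seen.

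On simulated counts for the cycling comparison over 10219 genes, all 100 genes raised and 100 genes lowered 3 times were recovered and 2 of 10019 unchanged genes were called. The 95% intervals held the true ratio in 95.7% of unchanged genes. Simulated group sums were Poisson counts without variation between barcodes, so these figures check the calculation only. They do not measure how often a call or interval is wrong when barcodes vary. Alternatives were other barcode filters, 2 equal groups, a 2-fold rule, each library alone, and other clusterings. Python 3.11.15, numpy 2.4.6 and scipy 1.17.1 were used.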

Additional observations from a re-analysis of the deposited data

How the results depend on the processing

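Of the members' ratios under all alternatives, 469 stayed called or uncalled as before, 32 no longer passed the threshold and 5 newly passed it. Direction was followed only for called ratios, and 1 reversed, that of Kcnj13 with hypoxia share. It had a log2 ratio of 0.11 without the 10 barcodes of each library with most Kcnj13 UMIs. Members lower with hypoxia share were then 1, as with a 2-fold rule, and 2 to 3 in 1 library alone. Within low-cycling barcodes they were 2, not 5, with at least 10000 UMIs, with marker genes at 1% or more, with at most 10% mitochondrial UMIs, with 2 equal groups, with a 2-fold rule, without barcodes with C1q UMIs and without the top Kcnj13 barcodes, and 5 to 6 in 1 library alone. Members higher with Pmel were 2 with marker genes at 1%, with 2 equal groups and with a 2-fold rule, and 5 in either library alone. With cycling the counts stayed at 0 and 1 in each library. With at least 1000 UMIs, macrophage-like barcodes of library 1 held 3.29% of the melanoma level, and Mitf was 4.56 times the expected count. With doublets kept, macrophage-like barcodes held 36.5% and 53.6%, Mitf was at 1.34 and 1.26 times, and monocyte-like barcodes of library 2 held 8.43%. At Leiden resolution 1.5, where the monocyte-like class lost a cluster left unnamed, Mitf in it was at 2.90 and 1.06 times. The causes of these shifts were not tested. The alternatives without C1q and top Kcnj13 barcodes were chosen after seeing the data. No paired analysis was possible because each genotype is 1 library and no test was made. Depth limits Kcnj13, Sox10 and Tyr in single barcodes and every member in classes of few UMIs.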
